A study of Zea mays with 4 samples.

Results

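The study sequenced small RNA of maize leaves to follow microRNAs during feeding by the fall armyworm, the larva of the moth Spodoptera frugiperda. The entries described here are those named miR9774, a microRNA family catalogued in wheat (name prefix tae). They are all rows of the deposited table whose name holds miR or MIR directly followed by that number and no further digit, with each distinct sequence used once. This gave 10 entries from 13 rows, out of 319 distinct sequences in 500 rows. The family was selected on its abundance, as the one with the highest normalized values in these libraries, so its high level is a description and not a test result.

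There were 4 libraries, all of leaves at the 4-leaf stage and each the only one of its title. Leaves of T1 had been fed on for 1 day and those of T3 for 3 days. The labels of CK1 and CK3 give the tissue and no feeding, and these leaves are called unfed here. The protocol in the labels speaks of more small RNA libraries than the 4 analysed here, and neither labels nor table say whether a value column is a single library or pools several. Each column is treated as 1 library. The labels name no maize genotype, give no sampling time for the unfed leaves, and do not say how many plants stand behind a library. Each fed library was set against the unfed library with the same number in its title.

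MicroRNAs are cut from a hairpin-shaped precursor transcript by the enzyme DCL1, which leaves a short duplex with one strand from the 5′ arm (p5) and one from the 3′ arm (p3) of the hairpin. One strand is loaded into an Argonaute protein, and in Arabidopsis the first base and the length of the strand influence which Argonaute takes it. Plant microRNAs pair with their targets along most of their length, so a changed base or a shifted end can matter. Sequences that differ from the catalogued microRNA by a few bases at an end are called end variants, or isomiRs.

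The sequences are shown first because the differences among the 10 entries are a matter of single bases and ends. They are written 5′ to 3′ with the letters of the deposited table, and the capitals mark bases 2 to 8, the seed. The first 6 entries form the major type:
tae-MIR9774-p5_2ss4AG21GT: aCAGGATAttgggtatttctt
tae-MIR9774-p3_2ss4AG21GT: aCAGGATAttgggtatttcttt
tae-miR9774_L+1_2ss4AG21GT: aCAGGATAttgggtatttctttc
tae-MIR9774-p3_2ss4AG21GA: aCAGGATAttgggtatttcta
tae-MIR9774-p3_2ss5AG22GT_1: aACAGGATattgggtatttctt
tae-MIR9774-p3_2ss5AG22GT_2: aACAGGATattgggtatttcttt
A further 3 entries form the minor type:
tae-miR9774_L+2_2ss21TC23TG: aACAAGATattgggtatttccggc
tae-MIR9774-p3_2ss21TC23TG: aACAAGATattgggtatttccgg
tae-MIR9774-p3_2ss21TC23TA: aACAAGATattgggtatttccga
The remaining entry reads the opposite strand:
tae-MIR9774-p5_2ss19CT21AC: gAAATACCcaatatcttgttc

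The 9 forward entries, those of the major and minor types, shared a run of 15 bases, and all 9 began with A. Within the major type the entries differed only by their ends. The start was either the shorter one shared by 4 entries or a start with 1 more A, shared by the pair whose names end in _1 and _2. Counted from the first base of that longer start, the longest minor and major sequences differed by A5G, C21T, G22T and G23T, with the base of the minor type first. The 10 entries thus held 4 different seeds, of which the major type held 2 and the minor type and the opposite-strand entry 1 each.

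The names of the entries list substitutions against a wheat sequence. All 20 substitutions named in the 10 entries had the listed base at the listed position. When they were undone, the 9 forward entries all led back to stretches of a single sequence, so both types were named as variants of the same wheat microRNA with 2 substitutions each. The arm in the name did not separate strands. The most abundant entry is named p5, but it lacks only the final base of the p3-named entry of 22 nt. The other p5 entry is a true complement. It paired over 20 bases with the minor type without a mismatch and over the same window with the major type with 1 mismatch, leaving 1 unpaired base at its own 3′ end. None of the 309 entries outside the family shared 14 or more bases in a row with a member on either strand, and the longest shared run was 9 bases. The GC content of the members was 30.4% to 41.7%, against a median of 50.0% outside the family. Of the 309 outside entries, 46 were at or below the highest of the members. None of the members had a maize name, but only 110 of all 319 entries did. Outside the family 4 entries, of 3 families, were also wheat-named.

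The miR9774 entries made up more than all other microRNA entries together in every library. Their values summed to 38370 normalized reads in T1, 36787 in T3, 38649 in CK1 and 49141 in CK3. This was 60.6% of the listed sum in T1, 57.8% in T3, 60.4% in CK1 and 65.5% in CK3. The lowest share was that of a fed library and the highest that of an unfed one, and the share of T1 lay close to that of CK1. Counting error is small beside these differences, with a 95% exact binomial (Clopper-Pearson) interval of 57.6% to 58.1% in T3 and of 65.2% to 65.8% in CK3. The sum and these intervals count both entries of a pair with equal values in all 4 libraries. With that pair and similar repeats elsewhere counted once, the shares were 58.2% in T1, 55.4% in T3, 57.4% in CK1 and 63.4% in CK3.

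The next family was miR168, whose 5p strand targets the Argonaute AGO1, with 3 entries and 4912 normalized reads in T1, 5468 in T3, 5501 in CK1 and 4186 in CK3. The miR9774 sum was 7.81 times the miR168 sum in T1, 6.73 times in T3, 7.03 times in CK1 and 11.7 times in CK3. These ratios count both entries of the pair with equal values. With the pair counted once the miR9774 sum was 34547.5 normalized reads in T1, 33087 in T3, 34062 in CK1 and 43788 in CK3. After miR168 came miR408, which targets copper proteins, with a mean of 3498 over the 4 libraries. The leading miR9774 entry by itself exceeded the most abundant entry outside the family 5.07-fold in T1, 4.53-fold in T3, 4.07-fold in CK1 and 5.54-fold in CK3.

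**Figure D1:**
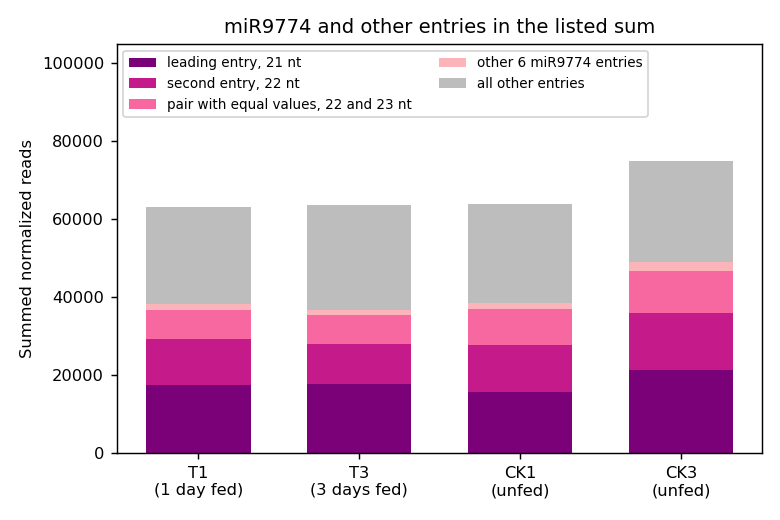
Summed normalized reads of the listed entries in the 4 libraries, stacked as the leading miR9774 entry, the second entry, the pair with equal values (both counted), the other 6 miR9774 entries and the 309 entries outside the family. The grey part is 24922 to 26822 in all 4 libraries, and the taller bar of CK3 comes from the miR9774 parts.

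The listed sums themselves differed between libraries, at 63292 in T1, 63609 in T3, 64034 in CK1 and 75008 in CK3. The entries outside the family summed to 24922, 26822, 25384 and 25867 in the same order, a far narrower range. CK3 exceeded CK1 by 10975 normalized reads over all listed entries, and miR9774 made up 10492 of them, or 95.6%. All listed and family sums and differences here count both entries of the pair with equal values. For T3 minus CK3 the difference was -11399.5 over all listed entries, -12354 for the family and 955 for the entries outside it.

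Depth differed as well. Most values of a library were whole multiples of a single step, taken here as the value of 1 read. By that step the listed entries stood for 209054 reads in T1, 180674 in T3, 87014 in CK1 and 90834 in CK3. These totals count both entries of the pair with equal values. In T1 the family stood for 126738 of these reads, or 114111 with the pair counted once. All values above 0 of the members were whole numbers of such reads, within 0.02 of a read. Intervals computed from them account for counting error and nothing else, since PCR copies cannot be recognised in libraries without molecular identifiers. Only 8 of 962 values above 0 in the 4 libraries stood for fewer than 5 reads, so an entry listed at 0 may have been present below that level. No entry carried any of the insect prefixes searched, which were bmo, dme, tca, ame, aga and sfr. Prefixes of other insects were not searched.

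The family shaped the length profile of the listed sequences. Its entries were 21 to 24 nt long, with 3 of 21 nt, 2 of 22 nt, 4 of 23 nt and 1 of 24 nt. Sequences of 22 nt held 27.2% of the listed sum in T1, 24.6% in T3, 28.7% in CK1 and 29.8% in CK3. Outside the family they held 6.45%, 6.27%, 6.59% and 9.03% in the same order. The listed sum counts both entries of the pair with equal values, the shorter at 22 nt and the longer at 23 nt. Each entry of the pair held 6.04% of the listed sum in T1, 5.82% in T3, 7.16% in CK1 and 7.14% in CK3. The reads of the pair cannot be divided between the lengths of 22 and 23 nt. Sequences of 21 nt, the usual length of plant microRNAs, held 60.6% of the listed sum in T1, 62.3% in T3, 58.0% in CK1 and 53.7% in CK3, and 82.8%, 80.9%, 83.2% and 72.0% of the sum outside the family. CK3 thus had the smallest 21-nt share with and without miR9774.

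**Figure D2:**
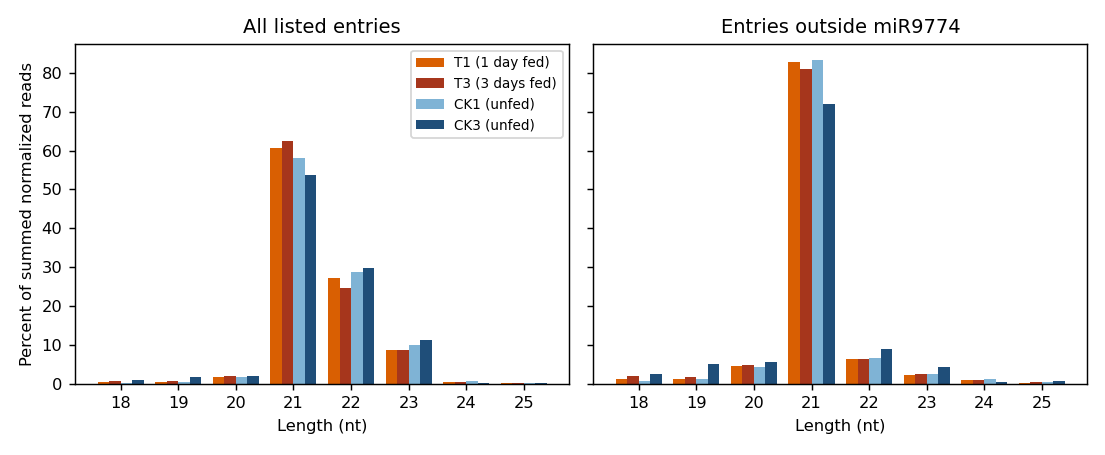
Percent of the summed normalized reads by sequence length in nt, for all listed entries (left) and for the entries outside miR9774 (right), with 1 bar per library. The 22-nt bars stand at 24.6% to 29.8% on the left and at 6.27% to 9.03% on the right. On the left both entries of the pair with equal values are counted, at 22 and at 23 nt.

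By their means over the libraries, the 10 entries spanned more than 4 orders of magnitude. The leading one, tae-MIR9774-p5_2ss4AG21GT, had 17449 normalized reads in T1, 17711 in T3, 15820 in CK1 and 21283 in CK3, and was the most abundant entry of each library. It held 27.6%, 27.8%, 24.7% and 28.4% of the listed sum in the same order. The fed libraries lay between the unfed ones, which stood on either side.

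The 22-nt entry tae-MIR9774-p3_2ss4AG21GT, with 1 more T at its end, had 11781 normalized reads in T1, 10290 in T3, 12110 in CK1 and 14678 in CK3. Both fed values were below both unfed values. The same held for tae-MIR9774-p3_2ss5AG22GT_1 and tae-MIR9774-p3_2ss5AG22GT_2, which start 1 base earlier. Each of them was listed with 3823 in T1, 3699 in T3, 4588 in CK1 and 5353 in CK3. Their values are equal in all 4 libraries, so the reads of the 2 lengths cannot be told apart in the table.

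Next in level came tae-miR9774_L+1_2ss4AG21GT, the 23-nt entry ending in C, with 1131 normalized reads in T1, 1027 in T3, 1122 in CK1 and 2034 in CK3. CK3 stood apart from the other libraries, which lay close together. The 21-nt entry ending in A, tae-MIR9774-p3_2ss4AG21GA, had 243 in T1, 249 in T3, 195 in CK1 and 389 in CK3, again with CK3 highest and with the fed libraries between the unfed ones.

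The minor type was 2 orders of magnitude lower than the major type and had the reverse order of the unfed libraries. Its 24-nt entry, tae-miR9774_L+2_2ss21TC23TG, had 71.8 normalized reads in T1, 68.3 in T3, 144 in CK1 and 37.2 in CK3. The 23-nt entry tae-MIR9774-p3_2ss21TC23TG had 41.8 in T1, 42.6 in T3, 82.4 in CK1 and 9.91 in CK3. For both of them CK1 was highest and CK3 lowest, and the fed libraries were nearly equal and lay in between.

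The remaining entries were at the edge of detection. The minor-type entry tae-MIR9774-p3_2ss21TC23TA was listed at 6.36 normalized reads in T1, the deepest library, and at 0 in T3, CK1 and CK3. The opposite-strand entry tae-MIR9774-p5_2ss19CT21AC was listed at 4.13 in CK3, which equals 5 implied reads, and at 0 in T1, T3 and CK1. The level of 5 reads, under which hardly any value was listed, corresponds to 1.51 normalized reads in T1, 1.76 in T3, 3.68 in CK1 and 4.13 in CK3. The T1 value of tae-MIR9774-p3_2ss21TC23TA stood above the limits of the 3 libraries that list it at 0. The CK3 value of tae-MIR9774-p5_2ss19CT21AC stood above the limits of T1 and T3 and close to that of CK1.

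**Figure D3:**
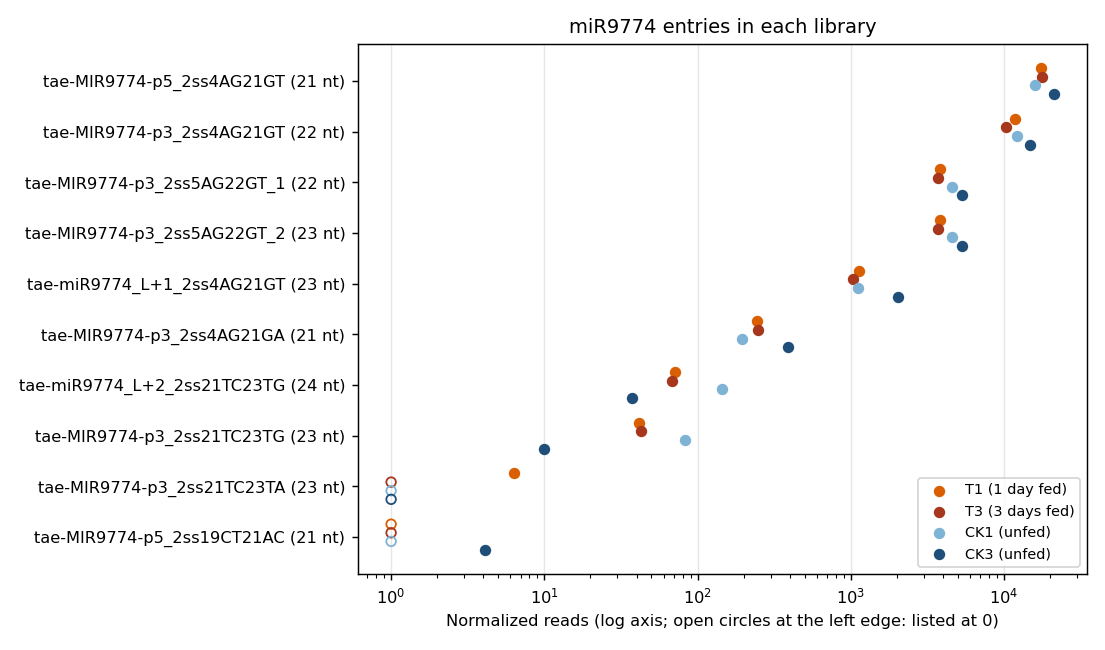
Normalized reads of the 10 miR9774 entries on a log axis, with 1 point per library, T1 and T3 above CK1 and CK3 within each row, and open circles for entries listed at 0. In the upper 6 rows, the major type, CK3 is rightmost. In the next 2 rows, of the minor type, CK3 is leftmost and CK1 rightmost.

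After 1 day of feeding no miR9774 entry was called higher or lower than in CK1, although both minor-type entries stood near the 2-fold threshold. With 1 library per group the comparison goes by size alone: an entry was called when log2(value + 1) differed by at least 1 and the higher library had at least 10 normalized reads. Of all 165 entries compared between T1 and CK1, 26.1% were called, against 0 of 8 members. The family sum had a log2 ratio of -0.01. The leading entry had a log2 ratio of 0.14, with a 95% counting interval of 0.12 to 0.16, and tae-MIR9774-p3_2ss4AG21GA one of 0.32 (0.12 to 0.53). The pair with equal values stood at -0.26 (-0.31 to -0.22). The minor-type entries came closest to the threshold, at -0.997 (-1.29 to -0.73) for tae-miR9774_L+2_2ss21TC23TG and -0.96 (-1.35 to -0.61) for tae-MIR9774-p3_2ss21TC23TG. Their side of the threshold depended on the setting. At a pseudocount of 0.1 tae-miR9774_L+2_2ss21TC23TG stood at -1.006. Under median-of-ratios scaling it stood at -1.03 and tae-MIR9774-p3_2ss21TC23TG at -1.0007. The median log2 ratio of the 8 members, with both entries of the pair counted, was -0.15, beside -0.12 for all entries compared.

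After 3 days of feeding the family sum was 36787 normalized reads in T3, against 49141 in CK3, a log2 ratio of -0.42. All 6 major-type entries, which include the pair with equal values, were lower in T3 than in CK3, and none by 2-fold. They lay between -0.27 (-0.29 to -0.24) for the leading entry and -0.98 (-1.06 to -0.91) for tae-miR9774_L+1_2ss4AG21GT. Both minor-type entries compared were higher in T3, with log2 ratios of 0.86 (0.40 to 1.38) for the 24-nt entry and 1.999 (1.25 to 3.10) for tae-MIR9774-p3_2ss21TC23TG. The 23-nt entry was the only 1 of 8 members called, against 48.1% of the 185 entries compared between T3 and CK3. It rested on 121 implied reads in T3 and 12 in CK3. The median log2 ratio of the members, with both entries of the pair with equal values counted, was -0.52, beside 0.01 for all entries. With CK1 as the control no member was called higher in T3, and 1 of 8, tae-miR9774_L+2_2ss21TC23TG, was called lower, against 27.7% of 173 entries called in either direction between T3 and CK1. Differences of T3 from CK3 and of CK3 from CK1 cannot be told apart with these libraries.

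The unfed libraries differed from each other more than the fed ones did. Between CK3 and CK1, 2 of 8 members were called, both minor-type and both lower in CK3, while 51.3% of all 187 entries compared were called. The log2 ratios of CK3 over CK1 were -1.93 (-2.46 to -1.48) for tae-miR9774_L+2_2ss21TC23TG and -2.93 (-4.05 to -2.19) for tae-MIR9774-p3_2ss21TC23TG. All 6 major-type entries were higher in CK3, by 0.22 (0.17 to 0.27) for the pair with equal values up to 0.99 (0.78 to 1.22) for tae-MIR9774-p3_2ss4AG21GA. Between T3 and T1, 0 of 8 members were called, against 17.6% of 165 entries. The leading entry had a log2 ratio of 0.02 between T3 and T1, the 22-nt entry one of -0.20 and the minor-type entries -0.07 and 0.03.

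**Figure D4:**
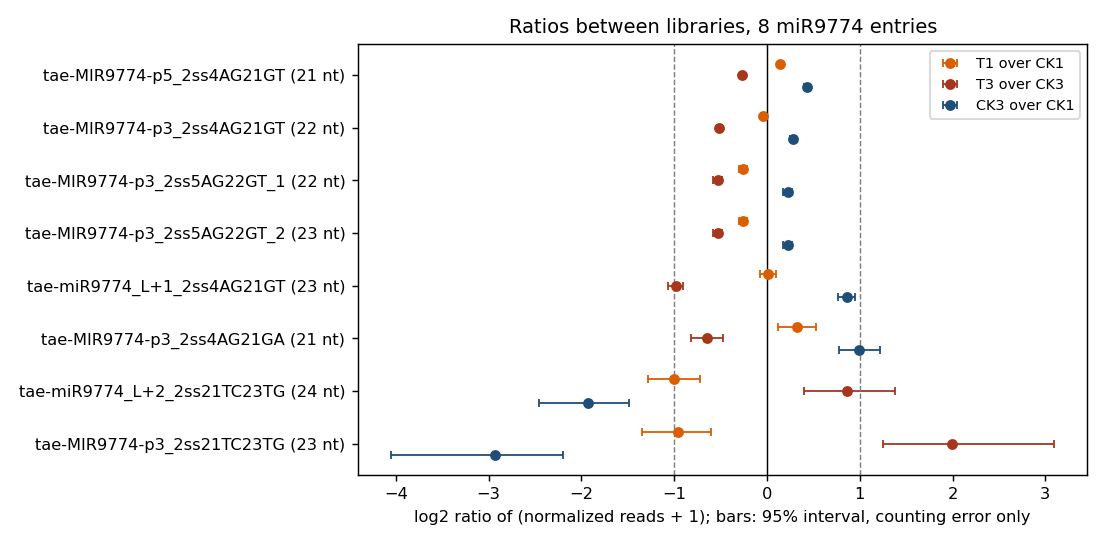
Log2 ratios of (normalized reads + 1) of 8 miR9774 entries for T1 over CK1, T3 over CK3 and CK3 over CK1, with 95% intervals of the ratio of implied reads and dashed lines at 2-fold. The points of the major type lie within the dashed lines. Points of the minor type pass them at 1.999 for T3 over CK3 and at -1.93 and -2.93 for CK3 over CK1. Some major-type intervals cross a line, at 0.78 to 1.22 for tae-MIR9774-p3_2ss4AG21GA (CK3 over CK1) and -1.06 to -0.91 for tae-miR9774_L+1_2ss4AG21GT (T3 over CK3). T3 over CK3 and CK3 over CK1 share the CK3 library.

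Fed against unfed libraries (T1 and T3 against CK1 and CK3) allowed the only test across entries. No member passed limma's test at an adjusted p of 0.05, and neither did any of the 154 entries tested, or 0%. Of these, 6 had an unadjusted p under 0.05, none of them a member. The largest member difference in size was 0.52 ± 1.04 (SE) on the log2 scale, for tae-MIR9774-p3_2ss21TC23TG. The pair with equal values had -0.40 ± 0.20, the 22-nt entry tae-MIR9774-p3_2ss4AG21GT -0.28 ± 0.17 and the leading entry -0.06 ± 0.18. By limma, the adjusted p of the 8 members tested lay between 0.83 and 0.98. Their median difference, with both entries of the pair counted, was -0.22, beside 0.16 for all 154 entries. Without CK1 it was -0.46, and at equal totals over the listed entries -0.09, beside 0.27 for all entries. The difference of the 22-nt entry was -0.14 without CK3, -0.18 without T3 and -0.41 without CK1, and that of the leading entry was 0.15 without CK3 and -0.28 without CK1. Both fed values were below both unfed values for 3 of the 8 members, 2 of which are the pair with equal values, and above them for 0. Over all 154 entries 27.3% had fed and unfed values that did not overlap, and 9.74% had both fed values lower. The spread in this test includes feeding time and the difference between the unfed libraries.

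Ratios within the family do not depend on how libraries were scaled, and several end variants differed between libraries beyond counting error. For these shares the pair with equal values was counted once. The longer start made up 11.1% of the implied reads of the major type in T1 (10.9% to 11.3%), 11.2% in T3 (11.0% to 11.4%), 13.6% in CK1 (13.2% to 13.9%) and 12.2% in CK3 (12.0% to 12.5%). Both fed libraries were below both unfed ones, and the fed libraries did not differ beyond counting error.

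Among major-type reads with the shorter start, the leading 21-nt entry made up 57.0% in T1 (56.7% to 57.3%), 60.5% in T3 (60.2% to 60.8%), 54.1% in CK1 (53.6% to 54.6%) and 55.4% in CK3 (55.0% to 55.9%). Here both fed libraries stood above both unfed ones, T3 highest. The 22-nt entry took most of the rest, with 38.5% in T1, 35.1% in T3, 41.4% in CK1 and 38.2% in CK3, and fed and unfed libraries overlapped. The 23-nt entry ending in C made up 3.70% in T1, 3.51% in T3, 3.84% in CK1 and 5.30% in CK3. The 21-nt entry ending in A made up 0.795%, 0.849%, 0.667% and 1.01% in the same order.

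In all, 9 quantities of the family were compared between the 2 fed and the 2 unfed libraries. They were 7 such shares, the family sum and the family's share of the listed sum. Fed and unfed values did not overlap for 5 of the 9, beside 27.3% of the 154 entries tested with limma. The latter rate is for deposited values of single entries and most of the 9 are shares, so the rates are not like for like. For each of these 5 the two-sided exact permutation p was 0.333, the smallest that 2 against 2 libraries can give, and 0.600 after Benjamini-Hochberg adjustment over the 9. The leading entry's share was higher in 2 of 2 fed libraries, by 3.98 percentage points on average, and the share of the longer start was lower in 2 of 2, with a difference of -1.74 percentage points. These quantities are not independent of one another, so 5 of 9 is not a count of separate results.

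The minor type was the most variable component. Its summed values were 120 normalized reads in T1, 111 in T3, 227 in CK1 and 47.1 in CK3. As a share of the implied reads of both forward types this was 0.347% in T1 (0.314% to 0.383%), 0.335% in T3 (0.299% to 0.374%), 0.665% in CK1 (0.593% to 0.744%) and 0.108% in CK3 (0.0814% to 0.139%). The fed libraries could not be told apart at this depth, and the unfed libraries lay on either side of them with intervals that did not overlap theirs. The major type exceeded the minor type 287-fold in T1, 297-fold in T3, 149-fold in CK1 and 929-fold in CK3. Against its own unfed control the minor type therefore went in opposite directions, with a log2 ratio of -0.91 (-1.14 to -0.70) for T1 over CK1 and of 1.22 (0.83 to 1.67) for T3 over CK3, and both depended on the control: T1 over CK3 was 1.33 and T3 over CK1 was -1.02. Its 24-nt entry made up 59.8% of the minor-type reads in T1, 61.6% in T3, 63.6% in CK1 and 78.9% in CK3, the last from 57 reads with an interval of 66.1% to 88.6%.

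**Figure D5:**
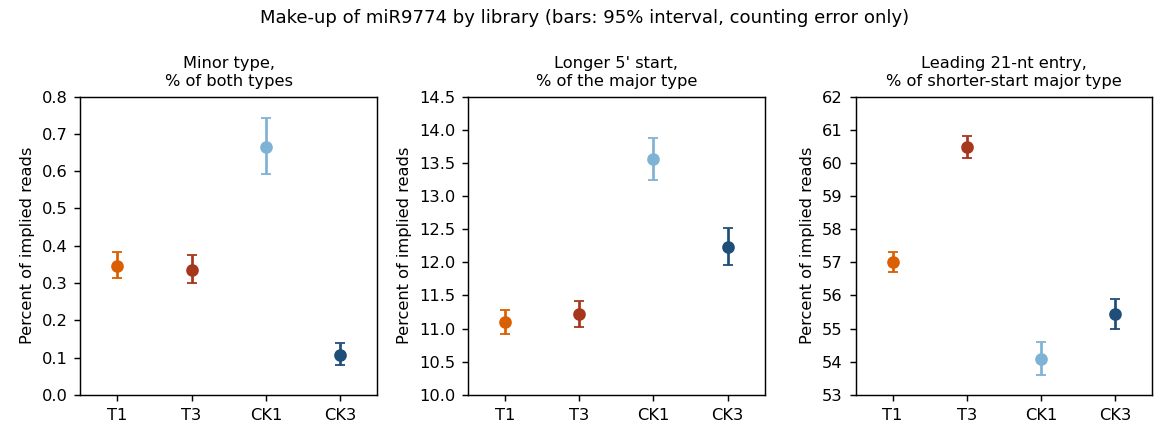
Make-up of miR9774 in T1, T3, CK1 and CK3, as percent of implied reads with 95% exact binomial intervals: minor type of both forward types (left), longer start of the major type (middle) and leading 21-nt entry of the major type with the shorter start (right). The middle and right axes do not start at 0. T1 and T3 lie together on the left and in the middle, and both lie above CK1 and CK3 on the right.

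Because the family took 57.8% to 65.5% of each library's listed sum, its level moved the shares of all other entries. As a share of all listed entries, every entry outside the family gained 0.29 on the log2 scale in T3 over CK3 relative to its share of the entries outside the family. The corresponding shift was -0.01 for T1 over CK1 and -0.20 for CK3 over CK1. Between T3 and CK3, 55 outside entries were called higher and 33 lower by their share of all listed entries (51.2% of 172 called), and 42 higher and 46 lower by their share outside the family (50.3% of 175). With the normalized values as deposited 45 were higher and 43 lower. The balance thus turned with the basis while the number called stayed at 88. Their median log2 ratio was 0.29 by share of all, 0.01 by share outside the family and 0.06 with the deposited values.

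Between T1 and CK1, where the family's share was nearly the same, 27 outside entries were called higher and 16 lower on either basis (27.2% of 158). Between CK3 and CK1, 44 were higher and 53 lower by share of all listed entries (56.4% of 172), and 54 higher and 41 lower by share outside the family (53.1% of 179).

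Of a list of 25 other plant families, 24 were in the table, and the basis mattered for a few of them. By share of all listed entries 7 of 24 families were called higher in T3 than in CK3, and by share outside the family 6 were. The family that dropped out was miR166, which targets HD-ZIP III transcription factors. None was called lower on either basis, and between T1 and CK1 none was called in either direction. These calls depended on the control. With CK1 as the control 0 of 24 families were called in T3, higher or lower, on either basis. Of single outside entries 29.3% of 167 were called there by share of all listed and 29.1% of 165 by share outside the family. For T1 over CK3, 6 of 24 families were called higher by share of all listed entries and 4 by share outside the family, with 0 lower. Of single outside entries 44.0% of 166 and 44.8% of 172 were called in either direction on these bases. Between CK3 and CK1, 8 of 23 families were lower by share of all listed entries and 4 by share outside the family. The 4 that dropped out were miR164, which targets NAC factors, miR171, which targets GRAS factors, miR394, which targets an F-box protein, and miR444, which targets MADS-box factors in grasses.

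The most abundant entries outside the family show the size of the effect. The 3p strand of miR168, zma-miR168b-3p_R+1, held 5.44% of all listed reads in T1, 6.14% in T3, 6.07% in CK1 and 4.01% in CK3, and 13.8%, 14.6%, 15.3% and 11.6% of the reads outside the family in the same order. Its log2 ratio of T3 over CK3 was 0.62 by the first share and 0.33 by the second. For zma-miR408a that ratio was 0.03 by share of all listed entries and -0.26 by share outside the family, so its sign turned. The regulator of copper and redox proteins zma-miR528a-5p had 0.87 and 0.58, the laccase regulator zma-MIR397b-p5 -0.86 and -1.15, and zma-miR168a-5p 0.56 and 0.27. Only zma-MIR397b-p5 crossed 2-fold between these bases.

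The family total was compared with 140 outside entries that had a mean of at least 10 normalized reads, by the largest difference in log2(value + 1) after each was centred on its own mean over the 4 libraries. The closest were zma-miR167e-5p, of a family that targets auxin response factors, with a largest difference of 0.13, osa-MIR1430-p5_1ss1GC with 0.15 and zma-miR167g-3p_L+1 with 0.17. Their levels were far lower. For zma-miR167e-5p they were 68.7 normalized reads in T1, 72.4 in T3, 68.7 in CK1 and 82.6 in CK3, and like the family it was highest in CK3. With 4 libraries this likeness is a description only.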

How the data were processed

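The deposited values are normalized signal, which the authors scaled per the file headers. How they were scaled, and the aligner, caller and build behind them, is not given in the sources used here. Per the labels' protocols, RNA was extracted with Trizol and libraries were made with the TruSeq Small RNA kit. Rows with the same sequence, whose values were equal, were reduced to 1, and the maize name was kept if there was one. The column len, which the deposited table gives in nt, equals the sequence length in all 500 rows. Sequences were not placed on a genome here. The members and lists were chosen with earlier results of these data known.

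The value of 1 read was the largest step of which at least 85% of the low values were whole multiples, within 0.02. By it 90.4% to 93.8% of the values of a library were whole, so no count model was used. Ratios are log2(value + 1) differences, which understate the change of low entries. Fed against unfed libraries were tested with limma 3.58.1 in R 4.3.3, with a trended prior and Benjamini-Hochberg adjustment over all entries tested, which had to reach 10 normalized reads in 2 or more libraries. The labels do not say that the libraries are of separate plants, so p-values measure only the spread between these 4 samples. All members were named, and outside the family the 5 most abundant entries, the 3 with the most similar pattern and, by counts, the list of 25 families. Alternatives were other controls, scalings, pseudocounts and minimum values, the title number as a block, and each library left out in turn.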

Additional observations from a re-analysis of the deposited data

Results flagged for a closer look

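Several miR9774 values went in opposite directions in the feeding comparisons of the 2 title numbers, each beyond its 95% counting interval. With 1 library per group the difference between the comparisons was not tested. For the minor type the log2 ratio was -0.91 for T1 over CK1 and 1.22 for T3 over CK3. Its entries tae-miR9774_L+2_2ss21TC23TG and tae-MIR9774-p3_2ss21TC23TG had -0.997 and -0.96 for T1 over CK1, and 0.86 and 1.999 for T3 over CK3. The major type, with its pair of equal values counted once, had 0.025 for T1 over CK1 and -0.41 for T3 over CK3. The sign for T1 over CK1 is not stable. With both entries of the pair counted, the major type summed to 38250.5 normalized reads in T1 and 38422.7 in CK1. Under median of ratios the family sum, with both counted, had -0.048 for T1 over CK1. The leading entry of the major type, tae-MIR9774-p5_2ss4AG21GT, had 0.14 for T1 over CK1 and -0.27 for T3 over CK3. For tae-MIR9774-p3_2ss4AG21GA the ratios were 0.32 and -0.64 in the same order. The unfed libraries CK3 and CK1 lay on opposite sides of both fed libraries for the minor type and for both of these major-type entries.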

How the results depend on the processing

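The family's share depended on what was summed. With all rows of the table it was 47.2% in T1, 43.0% in T3, 47.7% in CK1 and 54.6% in CK3, since many other sequences are listed repeatedly. With entries of equal value and nested sequence counted once it was 58.2%, 55.4%, 57.4% and 63.4%, and without candidate fragment names 61.5%, 59.4%, 61.3% and 69.6%. With at least 10 normalized reads it was 61.2% in T1, 58.4% in T3 and 60.7% in CK1. CK3 was highest and T3 lowest under each of these.

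The log2 ratio of the family sum was, for T1 over CK1, -0.36 against CK3, -0.19 against the mean of both unfed libraries, 0.0064 at equal totals, 0.016 at equal totals outside the family, -0.048 under median of ratios and 0.020 with the pair of equal values counted once, an alternative chosen after seeing the data. For T3 over CK3 it was -0.071 against CK1, -0.25 against the mean, -0.18 at equal totals, -0.47 at equal totals outside the family and -0.40 under median of ratios. The minor type, also chosen after seeing the data, had 1.33 for T1 against CK3 and -0.19 against the mean, and for T3 -1.02 against CK1 and -0.30 against the mean. For tae-MIR9774-p3_2ss21TC23TG the T3 ratio was -0.94 against CK1 and -0.11 against the mean.

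In T1 the members called higher numbered 1 against CK3. In T3 the members called higher numbered 0 against CK1 and 2 at equal totals. Those called lower numbered 1 against CK1 and 1 at equal totals outside the family. Of the entries outside the family, 43.5% of 170 were called in either direction for T1 against CK3. For T3 it was 28.5% of 165 against CK1, 51.2% of 172 at equal totals and 50.3% of 175 at equal totals outside the family. Under median of ratios, other pseudocounts and no minimum value such shares were not computed, so member counts are not given.

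In the limma test 0 members were called under each alternative that used all 4 libraries. The adjusted p of members by limma lay between 0.62 and 0.996 there. For fits with a library left out only the differences are given. The arm left with 1 library is assumed to vary like the other. At equal totals the fed minus unfed difference was 0.065 for tae-MIR9774-p5_2ss4AG21GT and 0.056 for tae-miR9774_L+2_2ss21TC23TG. With each library left out in turn it ranged from -0.66 (without CK1) to 0.33 (without CK3) for tae-MIR9774-p3_2ss4AG21GA, from -0.28 (without CK1) to 0.15 (without CK3) for tae-MIR9774-p5_2ss4AG21GT, from -1.03 (without CK3) to 0.90 (without CK1) for tae-miR9774_L+2_2ss21TC23TG and from -0.95 (without CK3) to 1.99 (without CK1) for tae-MIR9774-p3_2ss21TC23TG. The other 4 members tested stayed negative, tae-miR9774_L+1_2ss4AG21GT from -0.92 (without CK1) to -0.058 (without CK3). With the title number as a replicate block 0 members and 0 of 154 entries were called. Libraries of the same number deviated together with a correlation of 0.306 over 154 entries, which for a single such pair of deviations does not show pairing. The cause of these changes was not tested.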
